A study of Homo sapiens with 27 samples.

Results

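Nucleic acid sensors of the cytosol and of endosomes were followed through 27 RNA libraries from cells that had all received plasmid DNA. The members are the rows of the count table named DDX58, IFIH1, DHX58, TLR3, ZBP1, AIM2, EIF2AK2 and MAVS, 8 genes of 23230 listed. They were picked by name as genes whose products could detect transfected plasmid or RNA made from it. Neuroblastoma cells (SK-N-SH) and cells of a pair of neuroendocrine tumours of the pancreas (BON-1, QGP-1) were transfected by Lipofectamine 3000 with the empty pCMV6-AC plasmid (vector), the same plasmid with full-length MAML3 cDNA (FL), or the plasmid with MAML3 cDNA that lacks exon 1 (dEx1), both proteins ending in a V5 tag. MAML3 is a Mastermind-like transcriptional coactivator known from Notch signalling. RNA was taken on day 3, with 3 biological replicates in each of the 9 groups. The comparator throughout is the vector group, whose cells also took up plasmid and lipid, so the levels below are levels after transfection. Untransfected cells were not analysed here.

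As background, cells recognise foreign nucleic acid through receptors in different places. RIG-I (gene DDX58) and MDA5 (gene IFIH1) are cytosolic helicases that bind double-stranded RNA, and LGP2 (gene DHX58) is a relative without a signalling domain that tunes both. RIG-I and MDA5 signal through MAVS, an adaptor on the mitochondrial membrane that does not bind nucleic acid itself, to the kinases that switch on type I interferon genes. TLR3 binds double-stranded RNA in endosomes, PKR (gene EIF2AK2) is activated by double-stranded RNA and halts translation by phosphorylating eIF2alpha, ZBP1 binds left-handed nucleic acid and can trigger necroptosis, and AIM2 binds cytosolic double-stranded DNA and assembles an inflammasome. Many of these genes are themselves induced by interferon.

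The members lie on 6 chromosomes. On hg19, DDX58 spans chr9:32455300-32526206 on the minus strand with 18 exons in its canonical transcript. IFIH1 spans chr2:163123584-163175194 (minus, 16 exons), DHX58 spans chr17:40253422-40264732 (minus, 14 exons), and EIF2AK2 lies at chr2:37326353-37384665 (minus, 17 exons). TLR3 lies at chr4:186990065-187009227 (plus, 5 exons) and AIM2 at chr1:159031389-159157633 (minus, 6 exons). ZBP1 at chr20:56178902-56195632 (minus, 8 exons) and MAVS at chr20:3827446-3856770 (plus, 7 exons) share a chromosome.

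Promoter sequences of 6 of the 8 members were in the RefSeq table of build GRCh38.p14, as 300 bases from 250 before the transcription start to 50 from it. DHX58 and ZBP1 were not matched. Both strands were searched for GAAANNGAA, the core of the interferon-stimulated response element, which interferon regulatory factors bind. Of 27305 promoters in the table, 8.29% held it. It was present in 4 of the 6 member promoters, namely IFIH1, TLR3, AIM2 and EIF2AK2. The shorter core recognised by interferon regulatory factors, AANNGAAA, overlaps the first and was in 23.2% of promoters. DDX58 held 3 matches to the shorter core and none to the longer, and MAVS held neither. The motifs were chosen after the sequences had been read. The 5 sequences below set the members that fell most clearly in SK-N-SH beside EIF2AK2 and MAVS, which did not pass the test there. They run 5′ to 3′ on the gene's strand, and capitals mark matches to GAAANNGAA on either strand.

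IFIH1, chr2:162318635-162318934, minus: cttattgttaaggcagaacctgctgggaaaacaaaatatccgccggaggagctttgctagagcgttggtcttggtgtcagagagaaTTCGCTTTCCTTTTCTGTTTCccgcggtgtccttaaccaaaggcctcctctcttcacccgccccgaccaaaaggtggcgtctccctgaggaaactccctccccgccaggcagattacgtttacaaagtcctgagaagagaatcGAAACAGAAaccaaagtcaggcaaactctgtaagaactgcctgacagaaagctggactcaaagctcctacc

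TLR3, chr4:186068906-186069205, plus: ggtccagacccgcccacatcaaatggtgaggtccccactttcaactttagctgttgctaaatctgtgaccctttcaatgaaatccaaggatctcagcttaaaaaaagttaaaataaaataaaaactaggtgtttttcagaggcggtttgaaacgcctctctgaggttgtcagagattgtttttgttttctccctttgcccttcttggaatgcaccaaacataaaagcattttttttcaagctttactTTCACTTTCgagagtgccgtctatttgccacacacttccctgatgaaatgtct

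AIM2, chr1:159076717-159077016, minus: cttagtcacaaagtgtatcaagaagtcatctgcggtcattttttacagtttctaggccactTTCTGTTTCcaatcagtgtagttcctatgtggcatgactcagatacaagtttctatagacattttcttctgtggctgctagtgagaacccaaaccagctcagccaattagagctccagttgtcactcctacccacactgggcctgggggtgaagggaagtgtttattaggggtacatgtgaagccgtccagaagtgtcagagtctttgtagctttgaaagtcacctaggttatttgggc

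EIF2AK2, chr2:37156931-37157230, minus: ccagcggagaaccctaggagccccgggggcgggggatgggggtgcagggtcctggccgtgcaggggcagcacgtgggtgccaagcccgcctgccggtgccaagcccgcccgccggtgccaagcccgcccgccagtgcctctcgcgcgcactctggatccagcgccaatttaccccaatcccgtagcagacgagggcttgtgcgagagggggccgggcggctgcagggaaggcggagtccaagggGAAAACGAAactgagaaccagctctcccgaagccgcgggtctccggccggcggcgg

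MAVS, chr20:3846584-3846883, plus: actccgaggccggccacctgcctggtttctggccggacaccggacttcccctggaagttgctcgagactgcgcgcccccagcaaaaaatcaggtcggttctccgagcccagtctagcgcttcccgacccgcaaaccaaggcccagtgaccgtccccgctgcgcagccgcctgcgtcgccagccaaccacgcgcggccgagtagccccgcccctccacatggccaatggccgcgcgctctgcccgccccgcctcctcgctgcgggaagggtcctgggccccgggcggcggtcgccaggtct

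IFIH1 held 4 matches to GAAANNGAA, 3 that overlap on the opposite strand between -164 and -144 and a single one at -21 to -13 on its own strand. The TLR3 match covered the start itself, from -3 to 6 on the opposite strand. The EIF2AK2 match, GAAAACGAA, covered the start as well, from -6 to 3 on its own strand, and the AIM2 match lay at -189 to -181 on the opposite strand. The palindromic STAT motif TTCNNNGAA was in 7.88% of promoters and, among the members, only in TLR3, with 2 matches. A match is a string of letters, not a measured binding site. The map of these matches along the 6 promoters shows how they lie around the start.

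**Figure D1:**
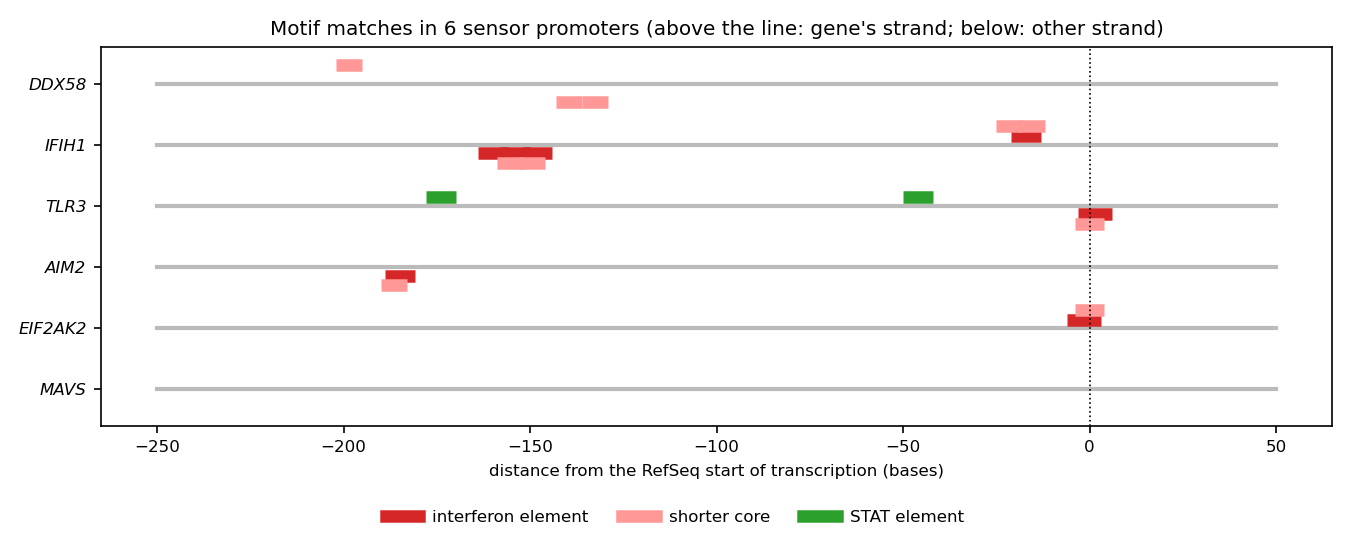
Motif matches in the 6 member promoters held by RefSeq, with distance from the transcription start in bases on the x axis and a row per gene. Bars are coloured by motif and lie above the line on the gene's strand and below it on the other strand. IFIH1 has 4 matches to the interferon element, TLR3, AIM2 and EIF2AK2 have 1 each, DDX58 has 3 to the shorter core alone, and MAVS has none of any motif.

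The 27 libraries held 73026244 to 120254457 estimated counts each. Levels are given as CPM, the count as a share of the library's scaled total, with 1 scaling for all 27 libraries. MAML3 reached 16.9 to 93.7 CPM in the 9 vector libraries and 2231 to 15840 CPM in the 18 libraries with a construct, which matched the labels, although counts per gene include construct and native transcripts of either kind. On principal components within lines, replicate 3 of each SK-N-SH group lay apart from replicates 1 and 2 of that group on the second component. On the first, SK-N-SH vector replicate 3 lay at 40, near the dEx1 libraries (55.9, 43.5 and 84.7). Vector replicates 1 and 2 lay at -28.3 and -28.5. The first component set replicate 1 of BON-1 vector apart. The QGP-1 libraries formed a pair of clusters that followed the constructs only in part. Vector replicates 2 and 3 lay with replicate 3 of FL and dEx1, and vector replicate 1 lay with replicates 1 and 2 of both constructs. Neuroblastoma markers summed to 95.3 to 242 CPM in SK-N-SH, against 0.310 to 2.11 in BON-1 and 26.1 to 32.7 in QGP-1, where ISL1 gave a mean of 21.1 CPM. Pancreatic neuroendocrine markers summed to 28120 to 42111 CPM in BON-1 and 5297 to 7058 CPM in QGP-1, against 140.1 to 295 in SK-N-SH.

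Among vector libraries, the 7 sensors were each highest in SK-N-SH. DDX58, IFIH1, DHX58 and EIF2AK2 were lower in BON-1 and lowest in QGP-1, TLR3, ZBP1 and AIM2 were at or near 0 in both, and the adaptor MAVS followed another order. The single fit of all 27 libraries held all 8 members, but ZBP1 and AIM2 passed its filter on low counts only through SK-N-SH, so they are not counted here. Of the other 6, 5 were called higher in SK-N-SH than in BON-1 (edgeR's quasi-likelihood test with Benjamini-Hochberg adjustment, adjusted p under 0.05), where 29.7% of all genes were called higher, and MAVS was called lower, as were 30.9%. The same 5 were called higher in SK-N-SH than in QGP-1, with a background of 30.6%. Between BON-1 and QGP-1, MAVS, DDX58, IFIH1, DHX58 and EIF2AK2 were called higher in BON-1, against 27.7% of all genes, and TLR3 overlapped and did not pass (adjusted p = 0.0552). Line and culture medium cannot be told apart in these comparisons.

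DDX58 stood at 469, 355 and 449.8 CPM in SK-N-SH vector replicates 1 to 3, at 60, 19.9 and 42.3 CPM in BON-1 and at 11.3, 11.4 and 10.9 CPM in QGP-1. The 3 lines did not overlap, and relative to their mean the BON-1 libraries differed among themselves most. The log2 difference was 3.38 over BON-1 (SE 0.36, adjusted p = 4.46e-08), with 5.25 over QGP-1 (SE 0.39, adjusted p = 1.92e-10). IFIH1 was at 354, 317 and 294 CPM in SK-N-SH vector, 109, 61.0 and 92.5 CPM in BON-1 and 6.17, 8.03 and 8.80 CPM in QGP-1, so that on the log2 scale BON-1 lay nearer to SK-N-SH than to QGP-1 for MDA5. Its log2 difference was 1.88 over BON-1 (SE 0.27, adjusted p = 3.06e-06) and 5.39 over QGP-1 (SE 0.31, adjusted p = 4.12e-12), and BON-1 was 3.51 above QGP-1 (SE 0.29, adjusted p = 1.68e-09). DHX58, the regulator, was scarcer in each line, at 36.1, 31.6 and 33.3 CPM in SK-N-SH, 4.35, 1.65 and 3.66 CPM in BON-1 and 0.397, 0.712 and 0.570 CPM in QGP-1. It was again separate between all 3 lines.

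EIF2AK2 was the member with the narrowest gap between lines among those called in all 3 contrasts of vector libraries, with 522, 539.6 and 544 CPM in SK-N-SH, 279, 158 and 155 CPM in BON-1 and 53.7, 86.5 and 80.5 CPM in QGP-1. MAVS was at 105, 64.0 and 81.9 CPM in SK-N-SH, 225, 190.0 and 174 CPM in BON-1 and 82.4, 146 and 126 CPM in QGP-1. BON-1 was above all vector libraries of the other lines for MAVS, and SK-N-SH and QGP-1 overlapped (log2 difference -0.50, SE 0.22, adjusted p = 0.0541). TLR3, ZBP1 and AIM2 were at or near 0 outside SK-N-SH. TLR3 was at 73, 67.4 and 66.0 CPM in SK-N-SH vector and no higher than 0.601 CPM in any library of the other lines. AIM2 was at 54.3, 56.9 and 22.2 CPM in SK-N-SH vector and at 0 in all 6 vector libraries of the other lines, which against a floor of 15 units per library makes it at least 229-fold higher than in BON-1 and at least 277-fold higher than in QGP-1. ZBP1 was low even in SK-N-SH, at 2.94, 2.12 and 1.55 CPM, with a single BON-1 vector library above 0 at 0.130 CPM, and was at least 13.7-fold higher than in QGP-1.

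Per kilobase of canonical transcript, the order within a line also changed. The annotation behind the counts is not known, so this allows only a rough comparison between genes. In SK-N-SH vector cells DDX58 (91.7 CPM per kb) and IFIH1 (89.8) came first, followed by EIF2AK2 (53.6), AIM2 (31.9), DHX58 (13.0), TLR3 (11.4), MAVS (7.12) and ZBP1 (1.03). In BON-1 IFIH1 led with 24.4 CPM per kb, ahead of EIF2AK2 (19.8), MAVS (16.7), DDX58 (8.81) and DHX58 (1.24). In QGP-1 MAVS led with 10.1 CPM per kb, EIF2AK2 followed with 7.37, and DDX58 and IFIH1 were at 2.41 and 2.14. The adaptor was below DDX58 and IFIH1 per length in SK-N-SH and above both in QGP-1.

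**Figure D2:**
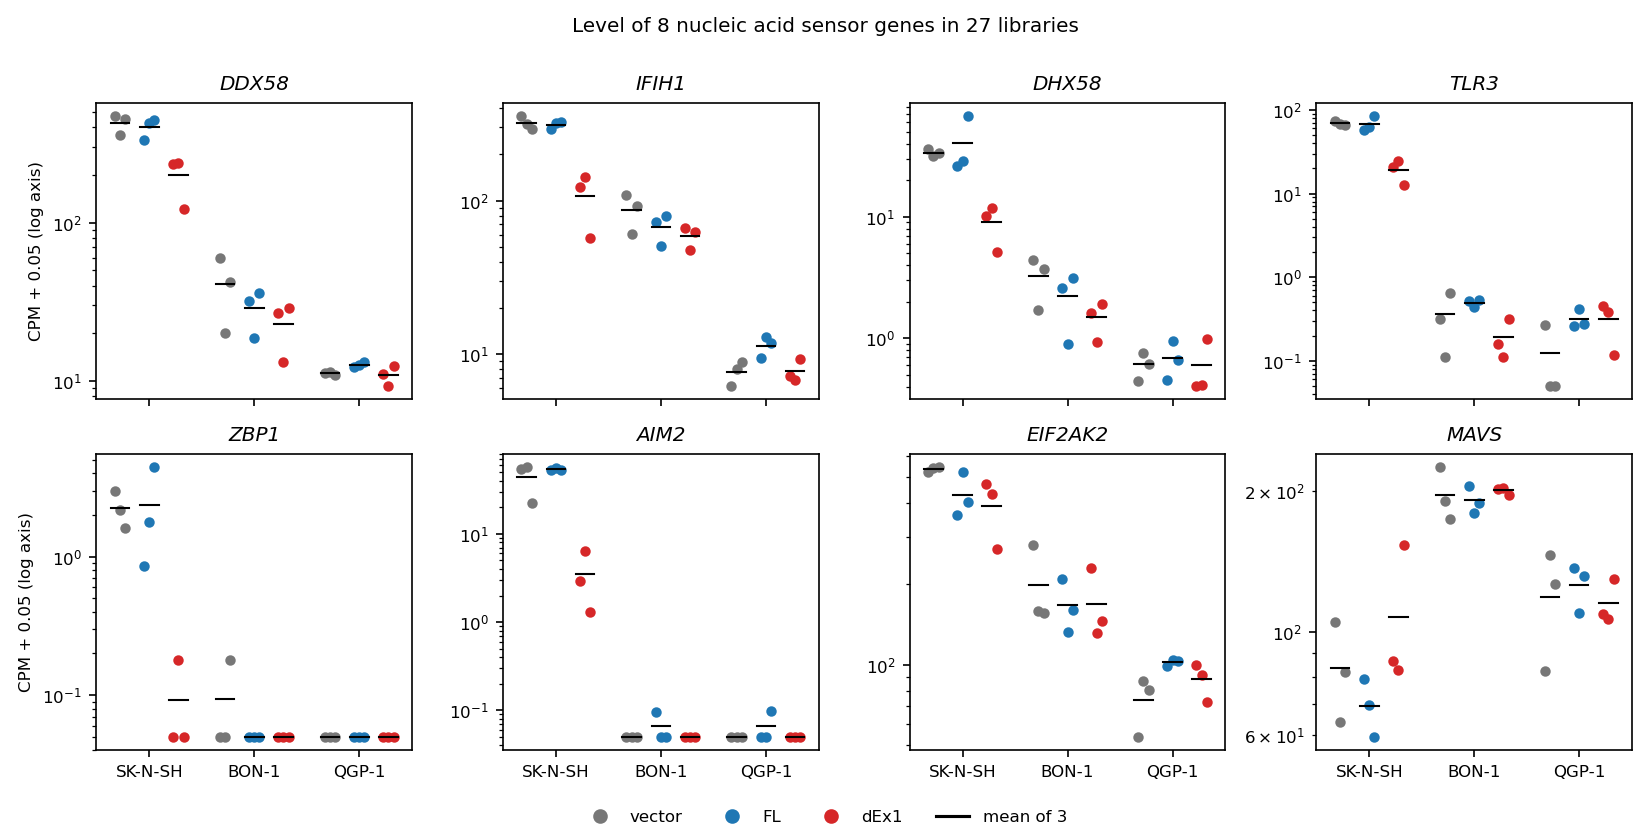
Level of each member in every library, as CPM + 0.05 on a log y axis, with the 3 lines on the x axis, colours for vector, FL and dEx1, a point per library and a black bar at the mean of 3. Vector and FL libraries of SK-N-SH lie together for DDX58, IFIH1 and TLR3, the SK-N-SH dEx1 libraries lie below them, and BON-1 and QGP-1 libraries lie lower still for DDX58 and TLR3.

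Setting SK-N-SH dEx1 beside vector asks how the sensors respond when neuroblastoma cells express MAML3 without its first exon. Both helicase sensors, their regulator DHX58, the endosomal receptor TLR3, the DNA sensor AIM2 and ZBP1 all fell, while PKR and MAVS did not pass the test. Thus 6 of 8 members were called lower and none higher, where 3.64% of 14674 genes were called lower and 4.47% in either direction. ZBP1 passed the filter on low counts only through vector and FL, so it could hardly come out higher and its call adds no support. With a minimum mean of 2 CPM, which left ZBP1 out, 5 members were called lower. The median log2 change was -1.57 over the 7 members away from 0 and 0.01 over all genes. In 7 members, ZBP1 among them, every dEx1 library was below every vector library, as in 14.2% of all genes. These are bulk samples, so fewer expressing cells and less RNA per cell cannot be told apart.

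DDX58 was at 234, 238 and 123 CPM in SK-N-SH dEx1 replicates 1 to 3, and its vector libraries had 355 CPM or more. The groups did not overlap, and dEx1 replicate 3 was the lowest. The fall was 1.09 on the log2 scale or 2.13-fold (SE 0.25, adjusted p = 0.0449), the weakest of the 6 calls. IFIH1 was at 123, 143 and 57.4 CPM with dEx1 against 294 CPM or more with vector, and fell by 1.57 on the log2 scale or 2.97-fold (SE 0.28, adjusted p = 0.0204). Its dEx1 replicates 1 and 2 lay above the BON-1 vector libraries and replicate 3 lay below them. DHX58 was at 10.2, 11.9 and 5.08 CPM against at least 31.6 CPM, and fell by 1.89 (SE 0.41, adjusted p = 0.0403). All 3 RIG-I-like receptor genes thus had separate groups and the lowest value in the same library.

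TLR3 was at 20.8, 24.5 and 12.6 CPM with dEx1, with its vector libraries close together at 66.0 to 73 CPM. It fell by 1.83 on the log2 scale or 3.55-fold (SE 0.24, adjusted p = 0.00883), and of the 6 called members TLR3 alone kept its call whichever single SK-N-SH library was left out. AIM2 was at 2.86, 6.28 and 1.25 CPM with dEx1, against 54.3, 56.9 and 22.2 CPM with vector. Vector replicate 3 was low but still above every dEx1 library, and AIM2 fell by 3.67 or 12.8-fold (SE 0.57, adjusted p = 0.0141). Without dEx1 replicate 2 its fall was 4.44 on the log2 scale, and the call held. ZBP1 was at 0, 0.129 and 0 CPM with dEx1 and at 1.55 CPM or more with vector (adjusted p = 0.0362), with no fold given since dEx1 was near 0.

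EIF2AK2 was at 471, 434 and 269.8 CPM with dEx1 and at 522 to 544 CPM with vector. All dEx1 libraries were lower, but the log2 difference of -0.45 did not pass the test (SE 0.21, adjusted p = 0.240). MAVS was at 86.6, 82.7 and 153 CPM with dEx1 and 64.0 to 105 CPM with vector, and the groups overlapped (log2 0.37, SE 0.26, adjusted p = 0.450). The high MAVS value came from dEx1 replicate 3, and with replicates 1 and 2 only the difference was -0.00702. PKR and MAVS, one with and one without a GAAANNGAA match, are the members whose change was smallest.

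SK-N-SH dEx1 replicate 3 was the lowest of the 9 SK-N-SH libraries for 7 of the 8 members, sharing 0 CPM with replicate 1 for ZBP1, and the highest for MAVS. Without it 3 members kept their call against vector, IFIH1, TLR3 and AIM2, and 268 genes were called in all, against 656 in the main fit. The count of calls was 1 without vector replicate 1 or without dEx1 replicate 1 (TLR3), 2 without vector replicate 2, and 3 without FL replicate 1 or FL replicate 2. With replicates 1 and 2 only of each group it was 6, where 3267 genes were called in all. The count of members thus moved along with the number of all genes called. With a single fit of all 27 libraries, 3 were called (IFIH1, DHX58 and AIM2), and TLR3 had an adjusted p of 0.118.

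With full-length MAML3, the estimates for the SK-N-SH sensors lay close to 0. None of the 8 members passed the test against vector, where 1.74% of all genes did. None had an unadjusted p under 0.05 by edgeR, where 2302 of 14674 genes had, and DESeq2 called none. The median log2 change was -0.03 for the members and -0.01 for all genes. DDX58 was at 331, 425 and 441 CPM (log2 -0.09, SE 0.25) and IFIH1 at 291, 321 and 325 CPM (log2 -0.04, SE 0.27), and for both replicate 1 lay below the vector libraries and the other replicates within their range. TLR3 was at 57.6, 62.9 and 83.8 CPM (log2 -0.01, SE 0.23) and AIM2 at 52.6, 56.5 and 52.5 CPM (log2 0.28, SE 0.51). DHX58 at 26.0, 28.7 and 67.4 CPM and ZBP1 at 0.806, 1.72 and 4.37 CPM each had a high replicate 3, and the ZBP1 log2 difference of 0.07 (SE 0.90) was -0.80 without it. EIF2AK2 was the member whose FL libraries, at 362, 520.3 and 404 CPM, all lay below vector (log2 -0.32, SE 0.21, adjusted p = 0.505), as in 9.94% of genes. MAVS was at 79.0, 69.7 and 59.4 CPM and overlapped vector.

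Set directly against each other, dEx1 cells had less of the same 6 sensors than FL cells. All 6 were called lower, where 11.5% of genes were called lower and 22% in either direction. ZBP1 again passed the filter only through vector and FL, and with a minimum mean of 2 CPM, which left it out, 5 were called. The median log2 difference was -1.53 for the members and 0.00 for all genes. The difference was -1.003 for DDX58 (SE 0.25, adjusted p = 0.0215). For IFIH1 it was -1.53 (SE 0.28, adjusted p = 0.00657), and for the regulator DHX58 -2.17 (SE 0.42, adjusted p = 0.00795). TLR3 differed by -1.81 (SE 0.24, adjusted p = 0.00183). AIM2 differed most among the members with a fold, by -3.95 (SE 0.58, adjusted p = 0.00273). ZBP1 had a mean of 0.0429 CPM with dEx1 and 2.30 CPM with FL (adjusted p = 0.0113). EIF2AK2 overlapped between the constructs (log2 -0.12, adjusted p = 0.718). MAVS was higher in every dEx1 library than in every FL library, as in 21.5% of genes, without passing the test (log2 0.64, SE 0.26, adjusted p = 0.118). This comparison shares its dEx1 libraries with the one against vector. IFIH1, DHX58, AIM2 and ZBP1 kept their call in each alternative run, DDX58 lost it without FL replicate 2 or FL replicate 3 (adjusted p up to 0.0619), TLR3 lost it with all 27 libraries in 1 fit (adjusted p = 0.0571), and the DHX58 difference was -1.32 with replicates 1 and 2 only. AIM2 was at -4.70 without dEx1 replicate 2.

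**Figure D3:**
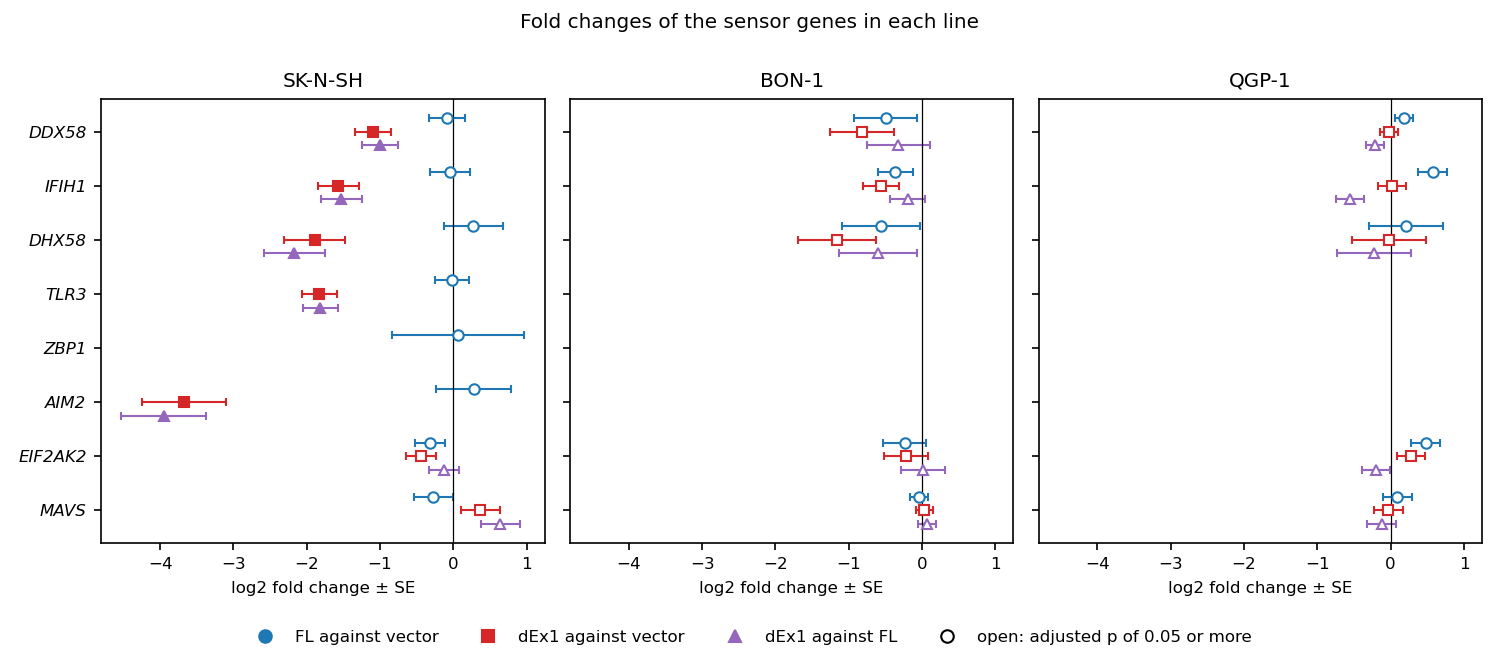
Fitted log2 fold change of each member, with bars of 1 SE, for FL against vector, dEx1 against vector and dEx1 against FL in the 3 lines on a common x axis. Filled points passed an adjusted p of 0.05, and members near 0 in a group are not drawn. In SK-N-SH the points for dEx1 against vector of DDX58, IFIH1, DHX58, TLR3 and AIM2 lie between -1.09 and -3.67, and those for FL against vector lie between -0.32 and 0.28.

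Genes that work beside the sensors moved unevenly with dEx1 in SK-N-SH. Over 9 lists of pathway genes, 23 of 86 tested genes were called lower against vector and none higher, compared with 3.64% of all genes called lower. Like the members, the lists were chosen with earlier results of these data known. Their counts, here and below, are therefore a description and not independent support. Medians are over the genes of a list that were away from 0. Of the interferons and output genes, 7 of 8 fell, with a median log2 change of -3.80, against 0.01 for all genes. IFNB1, the type I interferon that these pathways release, averaged 15.5 CPM in vector, 3.69 CPM in FL and 0.272 CPM in dEx1 cells (adjusted p = 0.0174 for dEx1 against vector, and 0.263 for FL). IFIT2, an antiviral RNA-binding protein, fell by 3.80 (SE 0.50, adjusted p = 0.00883), CXCL10, a T cell chemokine, fell by 4.79 (SE 0.76, adjusted p = 0.0145, or by 5.69 without dEx1 replicate 2), and CCL5 fell by 5.02 (SE 0.69, adjusted p = 0.0101).

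Among genes around ZBP1 and AIM2, 5 of 10 fell, with a median of -0.76. CASP1, the protease of the inflammasome, fell by 2.85 (SE 0.26, adjusted p = 0.00301), and MLKL, which carries out necroptosis, fell by 1.65 (SE 0.14, adjusted p = 0.00205). NLRP3, another inflammasome sensor, fell by 1.29 (SE 0.17, adjusted p = 0.00883), and the kinase RIPK1 fell by 0.48 (SE 0.08, adjusted p = 0.0202). Among partners of the RIG-I-like receptors and of MAVS, 4 of 17 fell, with a median of -0.46. They were IKBKE, a kinase that activates IRF3, by 1.00 (SE 0.13, adjusted p = 0.00883), the RIG-I cofactor ZC3HAV1 by 1.28 (SE 0.23, adjusted p = 0.0208), TNFAIP3, an inhibitor of NF-kB, by 2.98 (SE 0.56, adjusted p = 0.0229), and NLRC5, a regulator of MHC class I genes, by 1.43 (SE 0.27, adjusted p = 0.0247).

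Of 9 tested genes of endosomal Toll-like receptors and adaptors, 3 fell, with a median of -0.36. TICAM1, the adaptor of TLR3, fell by 0.71 (SE 0.11, adjusted p = 0.0130), UNC93B1, which carries these receptors to endosomes, fell by 1.01 (SE 0.17, adjusted p = 0.0164), and the adaptor MYD88 fell by 0.98 (SE 0.17, adjusted p = 0.0174). Of 10 enzymes that remove, cut or edit nucleic acids, the 3 called lower were the 2-5A synthetases OAS1, OAS2 and OAS3, at -1.63, -2.76 and -1.57, and the list's median was -0.35. Of 8 tested genes on the list of DNA sensors, 1 fell, IFI16, a sensor related to AIM2, by 1.01 (SE 0.20, adjusted p = 0.0293), and the median of that list was 0.07. None of 9 RNA polymerase III subunits, 10 PKR partners and eIF2alpha kinases, or 5 interferon receptor signalling genes passed by edgeR's test, with medians of -0.12, 0.10 and -0.06. The last list included IRF9 at -0.45 (SE 0.11, adjusted p = 0.0519).

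Most of these calls depended on single libraries. Of the 19 pathway genes named here with a call for dEx1 against vector, 14 lost it without dEx1 replicate 1, 13 without vector replicate 1, 10 without vector replicate 2 and 5 without dEx1 replicate 3, with adjusted p up to 0.116. Without dEx1 replicate 2 or FL replicate 1, 2 genes lost it, and without FL replicate 2, 1 did. IKBKE, MLKL, CASP1 and NLRP3 kept it with any 1 library left out. With all 27 libraries in 1 fit 7 lost it, IFI16, TICAM1, IKBKE, CASP1, NLRP3, RIPK1 and OAS1, with adjusted p of 0.419 for IFI16 and 0.447 for NLRP3. MLKL kept its call in all 21 alternatives.

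With FL against vector, 3 of the 86 genes were called higher and none lower, with 0.934% of all genes called higher. They were IKBKE by 0.90 (SE 0.13, adjusted p = 0.0197), NLRP3 by 0.86 (SE 0.16, adjusted p = 0.0433) and NINJ1, a mediator of membrane rupture, by 1.01 (SE 0.20, adjusted p = 0.0462). IKBKE lost its call without any 1 of 4 libraries, NINJ1 of 7 and NLRP3 of 8, with adjusted p up to 0.0899, 0.157 and 0.146. All 3 also lost it with only the 6 libraries compared and with all 27 libraries in 1 fit. In the latter the adjusted p was 0.456 for IKBKE, 0.129 for NINJ1 and 0.823 for NLRP3. Between dEx1 and FL, 36 of 86 were called lower and 3 higher, where 11.5% of all genes were called lower and 22% in either direction.

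**Figure D4:**
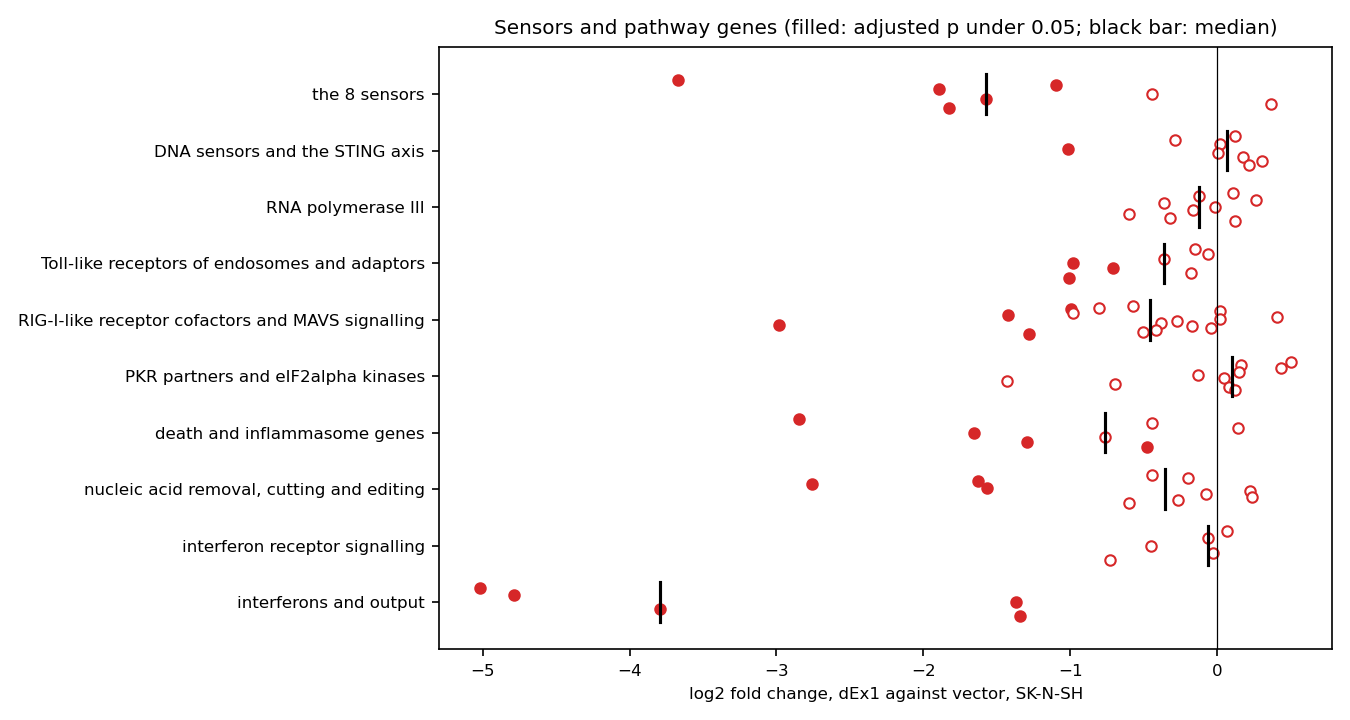
Log2 fold change of dEx1 against vector in SK-N-SH for the sensors and 9 lists of pathway genes, a point per tested gene, filled where the adjusted p was under 0.05, and a black bar at each median. Genes near 0 in a group, ZBP1 among them, are not drawn. The interferons and output genes lie lowest, with a median of -3.80. The RNA polymerase III and PKR partner lists have medians near 0 (-0.12 and 0.10), with single genes lower, POLR3G at -0.60 and PPP1R15A at -1.43, neither called.

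Markers of blood cells, which are rich in several of these sensors, were set beside the SK-N-SH results. Of 10 markers in the table, 5 were at 0 in all 3 vector libraries, 3 in all FL libraries and 5 in all dEx1 libraries. Their sum ran from 225 to 324 CPM with vector, 423 to 540 CPM with FL and 81.2 to 96.4 CPM with dEx1, nearly all of it from CD68, a lysosomal protein, at 278, 471 and 84.5 CPM on average. PTPRC, the marker common to white blood cells, had means of 0.600, 0.836 and 0.359 CPM, and MS4A1, CD3E and CLEC4C were at 0 in all 9 libraries.

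In BON-1, DDX58, IFIH1, DHX58 and EIF2AK2 had estimates below 0 with either construct, and no member passed the test. With a single library left out, the EIF2AK2 estimate rose as far as 0.07 with FL and 0.09 with dEx1. The DDX58 estimate with FL rose as far as -0.13. The filter on low counts kept 6 of 8 members, leaving out ZBP1 and AIM2, and TLR3 was near 0. None was called with FL (0.00671% of all genes called) or dEx1 (0.0134%), and DESeq2 called none. With FL no member had an unadjusted p under 0.05 by edgeR's test, where 576 of 14903 genes had. With dEx1 1 member had, as had 429 of 14903 genes. DDX58 was at 31.8, 18.5 and 36.1 CPM with FL and 27, 13.1 and 28.9 CPM with dEx1, against 60, 19.9 and 42.3 CPM with vector. Within each replicate number DDX58, IFIH1 and DHX58 were below vector with either construct, while the groups of all 3 genes overlapped. How many of all genes do the same was not counted. The dEx1 changes were -0.82 for DDX58 (SE 0.43), -0.56 for IFIH1 (SE 0.24) and -1.16 for DHX58 (SE 0.54), each with an adjusted p of 0.916. These fits have no replicate block, and with it the adjusted p were 0.486, 0.468 and 0.502.

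IFIH1 in BON-1 was at 72.8, 50.9 and 79.7 CPM with FL and 66.5, 48.0 and 62.6 CPM with dEx1, and DHX58 was at 2.57, 0.856 and 3.10 CPM and at 1.56, 0.884 and 1.86 CPM. For both, replicate 2 was the lowest library of every BON-1 group. EIF2AK2 was at 209, 132 and 160.4 CPM with FL and 229, 131 and 145 CPM with dEx1, and replicate 1 was the highest of each group. MAVS was close between groups, at 205, 179 and 189 CPM with FL and 202, 203 and 196 CPM with dEx1, a log2 change of 0.03 for dEx1 (SE 0.12). TLR3 was at 0.471, 0.384 and 0.488 CPM with FL and 0.109, 0.0609 and 0.264 CPM with dEx1, separate groups as in 3.03% of genes, at levels too low for a fold. Between dEx1 and FL no member of 6 was called (0% of all genes), and DESeq2 called none. By edgeR none had an unadjusted p under 0.05, where 156 of 14903 genes had. In simulated data made from this table, the test called 34% of genes lowered 2-fold in BON-1 with dEx1, 32% in QGP-1 and 68% in SK-N-SH. These sets held 118, 117 and 146 calls, against 2, 3 and 656 in the data for dEx1 against vector. A call needs a smaller p where fewer genes are called, so these shares do not give the power for the members in the data.

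In QGP-1, where the helicases were lowest, IFIH1 and PKR were higher in every FL library than in every vector library, without passing the test. Again 6 of 8 members were tested. None was called with FL (0.0275% of all genes called) or with dEx1 (0.0207%), and DESeq2 called none in either. By edgeR's test 2 had an unadjusted p under 0.05 with FL, as had 737 of 14522 genes. None had with dEx1, where 527 genes had. IFIH1 was at 9.40, 12.8 and 11.9 CPM with FL against 6.17, 8.03 and 8.80 CPM with vector, a log2 difference of 0.57 (SE 0.19, adjusted p = 0.894). EIF2AK2 was at 98.8, 104 and 103 CPM against 53.7, 86.5 and 80.5 CPM (log2 0.48, SE 0.19, adjusted p = 0.937). DDX58 was at 12.3, 12.6 and 13.2 CPM with FL, all above its vector libraries at 10.9 to 11.4 CPM (log2 0.18, SE 0.12). These 3 members had separate groups, as did 6.2% of all genes in that direction.

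With dEx1 the QGP-1 levels of both helicases were close to vector, with IFIH1 at 7.18, 6.73 and 9.22 CPM (log2 0.02, SE 0.19) and DDX58 at 11.1, 9.26 and 12.4 CPM (log2 -0.02, SE 0.12). EIF2AK2 was at 99.8, 91.6 and 72.8 CPM and overlapped vector (log2 0.27, SE 0.19). MAVS, at 137, 109 and 132 CPM with FL and 109, 106 and 129.7 CPM with dEx1, overlapped vector in both. DHX58 was below 1 CPM in every QGP-1 library, and its log2 difference of -0.02 with dEx1 was -0.61 without dEx1 replicate 3. Between dEx1 and FL, IFIH1 was the single member with separate groups (log2 -0.55, SE 0.19, adjusted p = 1.00), as in 2.54% of genes. No member was called there (0.0138% of all genes), and DESeq2 called none. By edgeR 1 member had an unadjusted p under 0.05, as had 186 of 14522 genes.

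Whether the response differed between lines was tested in the single fit of all 27 libraries. For dEx1, the IFIH1 effect in SK-N-SH was below that in QGP-1 by 1.58 on the log2 scale (SE 0.37), with an adjusted p of 0.0535, which missed the threshold. DDX58 differed from QGP-1 by -1.06 (SE 0.46, adjusted p = 0.417), and for DHX58 the difference was -1.88 (SE 0.72, adjusted p = 0.329), or -1.26 without QGP-1 dEx1 replicate 3. ZBP1 and AIM2 were at or near 0 in every BON-1 and QGP-1 library and could not be compared, and TLR3 was near 0 there. Of the 6 members that passed the filter in every line none was called, with 0.521% of genes called. By edgeR 4 members had an unadjusted p under 0.05, as had 1745 of 16883 genes. DESeq2 called 2 members (IFIH1 and TLR3) and 403 genes in all. With the replicate block IFIH1 and TLR3 were called too. Against BON-1, the dEx1 effect on IFIH1 differed by -1.01 (SE 0.37, adjusted p = 0.297). For DDX58 the difference was -0.27 (SE 0.46, adjusted p = 0.981), and for DHX58 it was -0.73 (SE 0.70, adjusted p = 0.821). No member was called there (0.332% of genes), and DESeq2 called none. By edgeR 1 member had an unadjusted p under 0.05, as had 1843 of 16883 genes. The dEx1 effect on these 3 genes was therefore not shown to differ between SK-N-SH and BON-1, nor was a fall in BON-1 shown, where none of the 3 passed. For FL no member was called against BON-1 (0.284% of genes) or QGP-1 (0.16%), and DESeq2 called none. By edgeR 0 and 1 members had an unadjusted p under 0.05, where 1583 and 1459 of 16883 genes had.

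Over all 9 groups, the order of the mean levels differed by member. DDX58, IFIH1 and TLR3 ran from SK-N-SH vector and FL, which overlapped, to SK-N-SH dEx1, and from there to the groups of the other lines. For IFIH1 the ranges of SK-N-SH dEx1 and BON-1 vector overlapped through dEx1 replicate 3 alone, and for DDX58 they did not. AIM2 had SK-N-SH FL and vector first, overlapping, then dEx1, with the other 6 groups at or near 0. EIF2AK2 kept the order SK-N-SH, BON-1, QGP-1 throughout, with dEx1 libraries of SK-N-SH overlapping BON-1 vector through a single low and a single high library. MAVS had another order, with the 3 BON-1 groups first and overlapping, then QGP-1, then SK-N-SH, and its highest SK-N-SH library was dEx1 replicate 3.

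Across the 9 SK-N-SH libraries, log2 levels of DDX58, IFIH1, DHX58, TLR3 and AIM2 varied together, with Pearson correlations of 0.901 to 0.982 between them. EIF2AK2 correlated with these at 0.555 to 0.759, and MAVS at -0.746 to -0.696. These are descriptions over 9 libraries that share their groups. Among 11253 genes compared, those most like IFIH1 were OAS3 (0.995), OAS2 (0.995) and OASL (0.994). DDX58 was most like RBM43 (0.984), TRIM5 (0.983) and UHRF1BP1 (0.981), DHX58 like LGALS9 (0.990), RNF114 (0.987) and UNC93B1 (0.981), and TLR3 like ZNF107 (0.996), HSH2D (0.995) and SSTR2 (0.995). AIM2 was most like CXCL10 (0.994), N4BP1 (0.994) and RIPK2 (0.992). EIF2AK2 had weaker matches in LOC100507283 (0.954), ERBIN (0.910) and RGPD5 (0.903).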

How the data were processed

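The authors deposited estimated counts per gene as whole numbers, 1 column per library. Per the submitters' processing notes, Trimmomatic, HISAT2 and StringTie were used with hg19, with no versions given. How StringTie output became counts, which annotation was used and whether strand was counted are not given in the sources used here, so reads from a gene and an overlapping or antisense gene cannot be told apart. What 1 fragment is worth in these units is not known, and floors assume 5 units a fragment, 3 fragments a library, and cover counting error only. Of 23234 rows, 4 repeated a symbol and 23230 were used. Totals of 73026244 to 120254457 units limit mainly the members near 0.

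Each line was fitted with its 9 libraries in edgeR 4.0.16 (R 4.3.3): filterByExpr, TMM scaling, quasi-likelihood F test, Benjamini-Hochberg adjustment over all genes tested and a threshold of 0.05. Contrasts between lines came from a single fit of 27 libraries and 16883 genes. All adjusted p come from these fits unless DESeq2 (1.42.0) is named. Genes with a group mean under 0.5 CPM are given with no fold change. Whether replicates were separate cultures is stated only as biological replicates, so p measures the spread between these libraries.

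The members and the lists were chosen with earlier results of these data known. The named genes are the 8 members, MAML3, up to 4 genes past the threshold or 2 as values per pathway list, and the 3 genes most like each member by Pearson correlation of log2 CPM in SK-N-SH (mean of at least 2 CPM, offset 0.1 CPM). Some of these, the genes most like MAVS among them, are not reported here. List genes MB21D1, TMEM173, MRE11A, POLR3C, POLR3GL, TRAF5, TBK1, SAMHD1, TYK2, STAT2 and IFNL3 were not analysed here. Named beyond that rule, after values were seen, are CD68, PTPRC, MS4A1, CD3E and CLEC4C as blood markers. Same-numbered replicates deviated together in BON-1 (lowest correlation 0.113) and in QGP-1 between dEx1 and FL (0.223), above the minimum of 0.1, and were taken as paired there. Values are from the fit without the replicate block unless it is named. The test was checked on simulated data. Figures used matplotlib 3.10.9.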

Additional observations from a re-analysis of the deposited data

How the results depend on the processing

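Of 16 counts of members called, 14 stayed within 1.5 times their main value in every alternative run. Most of these were counts of 0, many of them in BON-1 and QGP-1, where hardly any gene was called, so they had little room to move. The counts for SK-N-SH vector against each other line include ZBP1 and AIM2, which were set aside above. For dEx1 against vector in SK-N-SH the count of 6 became 3 with all 27 libraries in 1 fit and 3 with only the 6 libraries compared, and ran from 1 to 6 with a library left out. For the dEx1 effect in SK-N-SH minus that in QGP-1, the count of 0 became 1 with a minimum mean of 2 CPM and 2 with DESeq2, and ran from 0 to 1 with a library left out. With the replicate block that count was 2, and the block changed no other count of members called, in the paired BON-1 comparisons included. MAVS changed sign for dEx1 against vector in SK-N-SH with replicates 1 and 2 only (-0.00702), and in the dEx1 effect in SK-N-SH minus that in BON-1 without SK-N-SH dEx1 replicate 3 (-0.0103, against up to 0.52 with another library left out). The cause was not tested.

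Among single members, calls against vector in SK-N-SH were lost for DDX58 in 10 of 21 alternatives, DHX58 in 7, IFIH1 in 4, AIM2 in 2, TLR3 in 1 and ZBP1 in 8 of 20, with adjusted p up to 0.167, 0.135, 0.0823, 0.0684, 0.118 and 0.120 by edgeR. Of 1603 alternatives for members, 37 lost a call, 10 gained one and 2 changed sign where the main estimate exceeded its SE. The other 1554 changed no call, but sign changes of estimates no larger than their SE were counted among them. Depth limits ZBP1 and AIM2 in BON-1 and QGP-1, and TLR3, which had at most 51 units in any library there.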
